A study of Mus musculus with 8 samples.

Results

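The Ifitm family (interferon-induced transmembrane genes) was examined in the brown adipose tissue (BAT) of mice with cancer-associated cachexia. The members are the 5 genes named Ifitm1, Ifitm2, Ifitm3, Ifitm6 and Ifitm10 in the count table, out of 56953 genes. Ifitm1 was chosen by its higher counts in the cachectic than in the control libraries used here, so its group values are given as a description without a test. The other 4 members were taken by their family name. Control mice (CTR) received PBS, and cachectic mice (CAC) received 3000000 LLC cells, a mouse Lewis lung carcinoma line, under the skin of the right flank. All were wild-type C57BL/6J mice of 8 to 10 weeks at injection, male or female, and the study monitored them for 21 days. The sex of each mouse is not given by the labels used here. Each group has 4 libraries, each labelled as a separate sample, and the p-values measure the spread between these libraries.

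IFITM proteins are short membrane proteins of the cell surface and of endosomes that hinder the fusion of enveloped viruses with the cell. Interferons, the cytokines of antiviral defence, are the best known inducers of Ifitm1, Ifitm2 and Ifitm3. Interferon receptors signal through Jak kinases to transcription factors, which bind a DNA element called ISRE in type I responses and an element called GAS in interferon gamma responses. BAT is the tissue that burns lipid to make heat, and bulk BAT RNA also holds RNA of vessel, immune and nerve cells.

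The CTR libraries held 2454493 to 4827956 counts and the CAC libraries 1823167 to 3392538. At this depth, 3 counts equal 0.661 to 1.62 CPM (the usual depth-scaled count, here with TMM-normalized library sizes), and limits and intervals made from counts cover counting error only. Markers of brown adipocytes summed to 18362.9 to 20294.4 CPM in CTR against 17574.8 to 20039.5 CPM in CAC, as the labelled tissue should show. In bulk RNA, more cells of a type and more RNA per cell cannot be told apart.

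The members together held 211.0 ± 20.8 CPM in CTR against 395.2 ± 29.9 CPM in CAC (SD over 4 mice). The sum was 183.9, 205.6, 226.2 and 228.4 CPM in CTR replicates 1 to 4, and 422.7, 355.8, 413.5 and 389.0 CPM in CAC replicates 1 to 4. Every CAC library lay above every CTR library in this sum. Ifitm3 supplied 132.0 CPM of the difference of 184.2 CPM, which is 71.7% of it. Ifitm1 supplied 29.6 CPM (16.1%), Ifitm2 16.1 CPM (8.73%) and Ifitm6 6.77 CPM (3.67%). Of the 4 members taken by name, Ifitm2, Ifitm3 and Ifitm6 passed the filter on low counts, and Ifitm3 and Ifitm6 were called higher in CAC at an adjusted p below 0.05 in edgeR's quasi-likelihood test. Over all 9876 genes tested, 0.739% were called higher, while 0.192% were called lower and 0.932% in either direction. Ifitm1 and Ifitm6 passed the filter only through their CAC libraries, so the number of members called is a description and supports nothing further.

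**Figure D1:**
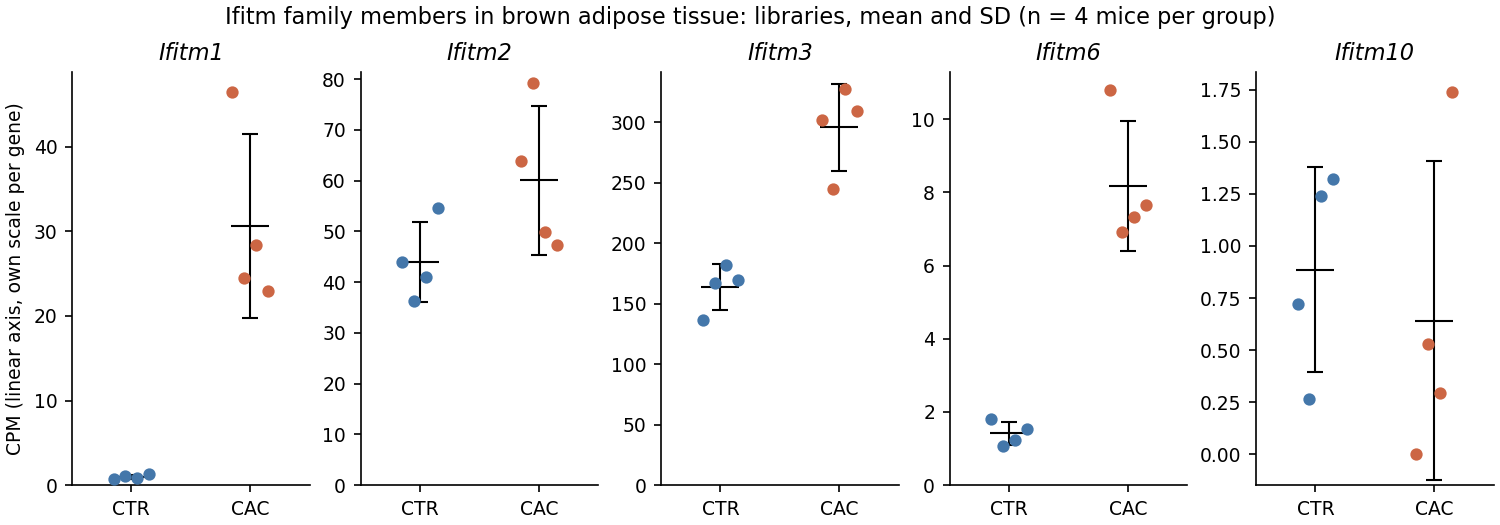
CPM of each Ifitm member in each library (points), on a linear axis with its own scale for each gene; horizontal marks are group means and bars are SD (n = 4). The CTR and CAC points do not overlap for Ifitm1, Ifitm3 and Ifitm6, and they overlap for Ifitm2 and Ifitm10.

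Because the members resemble each other, the sharing of reads between them was examined first. The coding sequences of Ifitm1 and Ifitm3 are identical at 81.9% of aligned bases, those of Ifitm1 and Ifitm2 at 81.6% and those of Ifitm2 and Ifitm3 at 80.8%. Ifitm6 is less alike, at 63.5% to 68.8% identity with these 3 genes, and Ifitm10 has 61.1% to 69.6% identity with the other members. The longest run of identical bases between members is 69, in Ifitm2 and Ifitm3, which is shorter than the 75 read cycles. The stretch of 75 coding bases with the most bases shared by all of Ifitm1, Ifitm2, Ifitm3 and Ifitm6 is shown as an example of their likeness. Capitals mark the 59 bases that are the same in all 4 GENCODE M21 transcripts.
Ifitm1: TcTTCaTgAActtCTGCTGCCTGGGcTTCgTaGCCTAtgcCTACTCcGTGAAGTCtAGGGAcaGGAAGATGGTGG
Ifitm2: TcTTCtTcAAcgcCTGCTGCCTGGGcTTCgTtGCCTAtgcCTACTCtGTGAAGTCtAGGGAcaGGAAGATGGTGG
Ifitm3: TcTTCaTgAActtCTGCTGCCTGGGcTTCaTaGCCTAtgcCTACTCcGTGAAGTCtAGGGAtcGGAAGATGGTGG
Ifitm6: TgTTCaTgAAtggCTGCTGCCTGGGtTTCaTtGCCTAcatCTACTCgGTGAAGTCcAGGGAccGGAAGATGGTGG
These are coding bases 131 to 205 of Ifitm1, 194 to 268 of Ifitm2, 197 to 271 of Ifitm3 and 167 to 241 of Ifitm6. In this stretch, Ifitm1 differs from Ifitm3 at 3 bases, Ifitm2 differs from it at 9 and Ifitm6 at 12. A pair of members can be more alike elsewhere, as Ifitm2 and Ifitm3 are over their identical run of 69 bases.

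No 75-base stretch of any member's transcripts occurs in a transcript of another member, so an error-free read of that length belongs to 1 member only. How the aligner placed reads with mismatches was not tested. Fractions of reads, whose origin (a match elsewhere or overlapping genes) was not tested, stand in 5 of the 8 libraries for Ifitm1, in 4 for Ifitm2, in 1 for Ifitm10 and in 0 for Ifitm3 and Ifitm6. For Ifitm2, 244 of 581 stretches (42.0%) also occur in other genes. Of these, 194 lie in Gm45717, a protein-coding model that overlaps Ifitm2, and others lie in processed pseudogenes. Gm45717 held at most 1.5 reads per library, and Gm8865, 1 of the pseudogenes, held 0.5 reads in CTR replicate 4. When both were added to Ifitm2, the sum was a whole number in all 8 libraries (123, 138, 99 and 250 in CTR, and 118, 150, 171 and 137 in CAC). For Ifitm1, 6 of 1031 stretches occur elsewhere, all of them in the pseudogene Gm7676, which held 0 counts in every library. No gene that shares the fractions of Ifitm1 was identified. Ifitm3 shares 4 of 604 stretches with the same pseudogene and Ifitm6 shares 0 with any gene. Ifitm10 shares 143 of 4785 stretches (2.99%) with Gm49369, an overlapping protein-coding model. Gm49369 held 2, 2.5, 0 and 4.5 reads in CTR and 1.5, 0.5, 7 and 1.5 in CAC, of the same order as the counts of Ifitm10 itself.

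Ifitm3 (ENSMUSG00000025492.7), which acts in endosomes and restricts influenza virus entry, was the most abundant member. It was read 380, 627, 438 and 769 times in CTR replicates 1 to 4 and 558, 460, 1118 and 887 times in CAC replicates 1 to 4. Scaled to library size, it was at 136.7, 167.0, 181.8 and 169.6 CPM in CTR against at 301.6, 244.6, 327.6 and 309.2 CPM in CAC. The lowest CAC library exceeded the highest CTR library, as did those of 3.64% of the 9876 genes tested. The mean rose from 163.8 ± 19.1 to 295.8 ± 35.8 CPM (SD over 4 mice), a fitted fold of 1.81 and a log2 fold change of 0.85 (SE 0.11, edgeR adjusted p = 0.000190). By log2 fold change it ranked 192 of 9876 genes, the highest first.

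Ifitm6 (ENSMUSG00000059108.5), a member found in myeloid cells, was far lower and rose by a larger factor. Its counts were 5, 4, 3 and 7 in CTR and 20, 13, 25 and 22 in CAC. In CPM it stood at 1.80, 1.07, 1.24 and 1.54 in CTR against 10.8, 6.91, 7.33 and 7.67 in CAC. No CAC library was as low as a CTR library, as for 3.64% of the 9876 genes tested, and CAC replicate 1 was the highest. The mean rose from 1.41 ± 0.324 to 8.18 ± 1.78 CPM (SD over 4 mice), a log2 fold change of 2.48 (SE 0.33, edgeR adjusted p = 0.000205). Because its high CAC libraries brought it through the filter, that p is not free of the choice of genes tested. Without the filter, its CTR counts alone would have admitted it. There the log2 fold change was 2.45 (SE 0.38, edgeR adjusted p = 8.02e-08), in a fit that called 351 genes in place of 92. That p is smaller although the SE is larger. The simulation described below covered only the filtered fit, so the p without the filter is a description too. The ratio of the pooled counts of Ifitm6, scaled by library size, was 5.67 with an exact 95% interval of 3.40 to 9.90 from counting alone. It ranked 7 of 9876 genes by log2 fold change.

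Ifitm2 (ENSMUSG00000060591.10), which like Ifitm3 acts in endosomes, was the second member in abundance and did not pass the test. Its deposited counts were 121.5, 136.5, 99 and 248.5 in CTR and 118, 149, 169.5 and 136 in CAC. It stood at 43.9, 36.2, 41.1 and 54.7 CPM in CTR against at 63.8, 79.2, 49.8 and 47.4 CPM in CAC. The groups overlapped, since CTR replicate 4 exceeded CAC replicates 3 and 4. The mean was 44.0 ± 7.81 CPM in CTR against 60.1 ± 14.7 CPM in CAC (SD over 4 mice), with a log2 fold change of 0.42 (SE 0.16, edgeR adjusted p = 0.264).

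Ifitm1 (ENSMUSG00000025491.15), which acts mainly at the cell surface, was the member chosen for its rise. Its deposited counts were 1.5, 4.5, 1.5 and 5.5 in CTR and 86, 46, 97 and 66.5 in CAC. It stood at 0.720, 1.07, 0.830 and 1.32 CPM in CTR against at 46.5, 24.5, 28.4 and 23.0 CPM in CAC. CAC replicate 1 was the highest library, as it was for Ifitm6. The means were 0.984 ± 0.268 and 30.6 ± 10.8 CPM (SD over 4 mice), and the fitted log2 fold change was 4.81 (SE 0.31), which ranked 4 of 9876 genes. The CTR level rests on 14 rounded counts and the CAC level on 295, and the ratio of these pooled counts was 28.4 (exact 95% interval 16.6 to 52.5, counting error only). With the decimals of all counts cut off, the log2 fold change of Ifitm1 was 5.14.

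Ifitm10 (ENSMUSG00000045777.15), a member with a longer coding sequence of 606 bases that is not known as an interferon target, was near the limit of detection. Its deposited counts were 1.5, 1, 3 and 6 in CTR and 0, 1, 1 and 5 in CAC. It did not pass the filter, and its level was 0.888 ± 0.494 CPM in CTR against 0.642 ± 0.766 CPM in CAC (SD over 4 mice, two-sided exact permutation p = 0.629 over 70 assignments). The ratio of its pooled counts was 0.785, with an exact 95% interval of 0.262 to 2.16, so a change within these bounds was not detectable at this depth. Of other family genes, Ifitm5, a gene of bone-forming cells, held 5 counts in CTR and 6 in CAC over all libraries. Ifitm7 held 0 counts in every library, which allows up to 0.661 to 1.62 CPM.

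Levels between members were compared per kilobase of exonic sequence. In CTR the order was Ifitm3 (241.5 CPM per kb), Ifitm2 (67.1), Ifitm6 (1.56), Ifitm1 (0.900) and Ifitm10 (0.186). The libraries of Ifitm6 ranged from 1.18 to 1.99 CPM per kb and those of Ifitm1 from 0.658 to 1.21, so these neighbours overlapped, while the other neighbours did not. This scale assumes reads along the whole exonic length, and whether the kit reads transcript ends only is not given in the sources used here. In CPM without that scaling, Ifitm10 (0.266 to 1.32) overlapped Ifitm1 (0.720 to 1.32) in CTR as well. In CAC the order was Ifitm3 (436.2 CPM per kb), Ifitm2 (91.7), Ifitm1 (28.0), Ifitm6 (9.04) and Ifitm10 (0.134), and no neighbours overlapped. Ifitm6 stood before Ifitm1 in CTR, within their overlap, and after it in CAC. The order in CPM without the scaling by length was the same in each group.

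The shares of the members in the family's reads follow from these changes. Ifitm1 took 0.464 ± 0.101% of the family's CPM in CTR against 7.67 ± 2.27% in CAC (SD over 4 mice), which contains the rise for which it was chosen. Ifitm6 took 0.681 ± 0.210% and 2.06 ± 0.343%. Ifitm3 held 77.5 ± 3.77% in CTR and 74.7 ± 5.47% in CAC, and Ifitm2 held 20.9 ± 3.48% and 15.4 ± 4.79%. For both of these genes the libraries of the groups overlapped.

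**Figure D2:**
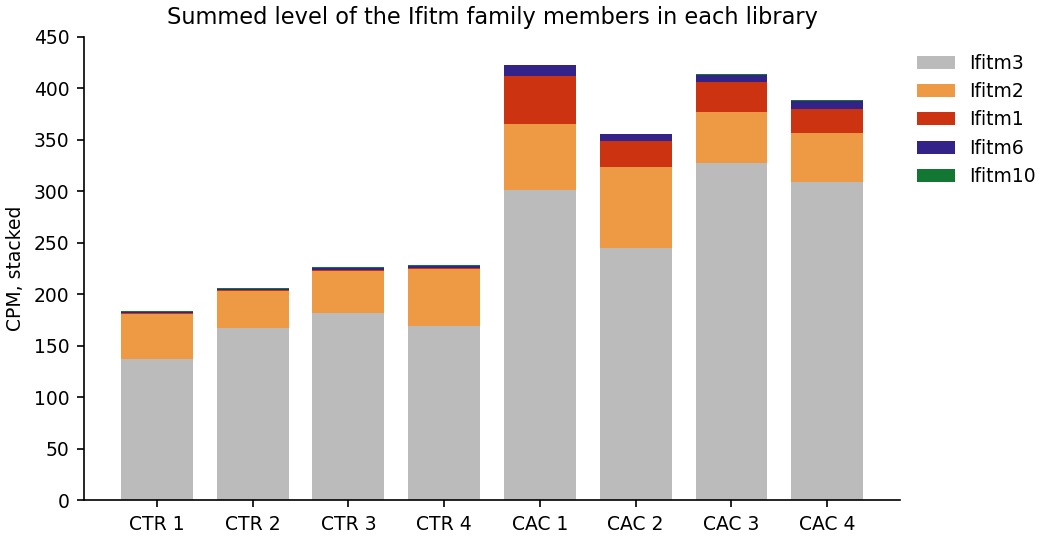
Summed CPM of the 5 Ifitm members in each library, stacked by member on a linear axis from 0. CTR libraries sum to 183.9 to 228.4 CPM and CAC libraries to 355.8 to 422.7 CPM, with Ifitm3 the largest block in each and a visible Ifitm1 block in CAC.

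Ratios within a library do not depend on its depth scaling. The log2 ratio of Ifitm2 to Ifitm3, from counts plus 0.5, was -1.64, -2.20, -2.14 and -1.63 in CTR and -2.24, -1.62, -2.72 and -2.70 in CAC. The means were -1.90 ± 0.31 and -2.32 ± 0.52 (SD over 4 mice), a difference of -0.42 (two-sided exact permutation p = 0.200), so the test did not separate the 2 genes' changes. The log2 ratio of Ifitm6 to Ifitm3 was -7.12 to -6.11 in CTR and -5.45 to -4.77 in CAC, which do not overlap. The log2 ratio of Ifitm1 to Ifitm6 had a mean of -0.61 ± 0.69 in CTR and 1.84 ± 0.22 in CAC, and that of Ifitm1 to Ifitm3 went from -7.33 ± 0.41 to -3.31 ± 0.45 (SD over 4 mice). These last differences, of 2.45 and 4.02, contain the rise for which Ifitm1 was chosen.

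Ifitm1, Ifitm2, Ifitm3 and Ifitm6 lie together on chromosome 7 of GRCm38, within 63.1 kb. Ifitm2 lies at 140954837 to 140955987, Ifitm3 at 141009586 to 141010770 and Ifitm6 at 141015699 to 141017924, all on the minus strand. Ifitm1 lies at 140967221 to 140969825 on the plus strand. Ifitm10 lies 1.31 Mb away on the same chromosome, at 142325837 to 142373753 on the minus strand. Within 100000 bases of a start of the 4 clustered members, 19 other genes are annotated, of which 8 were tested, 0 were called and 6 had 0 counts. Of all genes tested, 0.932% were called in either direction. Changes among the 8 tested neighbours ran from the log2 change of -0.38 of Ric8a, a chaperone of G proteins (edgeR adjusted p = 0.379), to 0.43 of the pseudogene Gm15542 (adjusted p = 0.543). Cox8b, a cytochrome oxidase subunit of brown fat and the most abundant of the 8, stood at 1085.4 ± 71.8 CPM in CTR against 930.9 ± 64.1 CPM in CAC (SD over 4 mice, log2 fold change -0.22, edgeR adjusted p = 0.286). Near Ifitm10, 3 of 12 annotated genes were tested. Lsp1, an actin-binding protein of leukocytes, rose from 3.80 ± 0.958 to 9.64 ± 3.07 CPM (SD over 4 mice), a log2 fold change of 1.27 (SE 0.28, edgeR adjusted p = 0.0308). Of its CTR libraries, 3 of 4 reached the level that the filter asks of 4 libraries, so it too entered the test through CAC. Ctsd, a lysosomal protease, had a log2 change of 0.12 (edgeR adjusted p = 0.686), and Tnni2, a troponin of fast muscle, had 1.05 (adjusted p = 0.301).

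The sequences around the start sites of the clustered members were searched for the letters of ISRE (GAAA, any 2 bases and GAAA again) and of GAS (TTCNNNGAA) on both strands, where an ISRE and a GAS match may overlap. RefSeq windows of GRCm38.p6, from 250 bases before to 50 bases after a start, were searched, and all 5 members had at least 1 window. They are shown from 250 bases before to 30 bases after the start because 3 of the 4 members carry matches, which stand in capitals.
Ifitm3, chr7:141010715-141010994, minus strand: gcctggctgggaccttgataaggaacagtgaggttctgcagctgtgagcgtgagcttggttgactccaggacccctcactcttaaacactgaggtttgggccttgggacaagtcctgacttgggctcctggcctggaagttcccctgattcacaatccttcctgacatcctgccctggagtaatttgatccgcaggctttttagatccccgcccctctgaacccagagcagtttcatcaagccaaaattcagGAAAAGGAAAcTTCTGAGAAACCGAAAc
Ifitm2, chr7:140955932-140956211, minus strand: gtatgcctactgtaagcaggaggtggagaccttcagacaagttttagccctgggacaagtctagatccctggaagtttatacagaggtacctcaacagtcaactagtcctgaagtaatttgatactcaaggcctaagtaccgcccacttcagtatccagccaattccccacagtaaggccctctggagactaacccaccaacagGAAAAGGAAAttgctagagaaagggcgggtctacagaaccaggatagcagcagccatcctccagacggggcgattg
Ifitm6, chr7:141016863-141017142, minus strand: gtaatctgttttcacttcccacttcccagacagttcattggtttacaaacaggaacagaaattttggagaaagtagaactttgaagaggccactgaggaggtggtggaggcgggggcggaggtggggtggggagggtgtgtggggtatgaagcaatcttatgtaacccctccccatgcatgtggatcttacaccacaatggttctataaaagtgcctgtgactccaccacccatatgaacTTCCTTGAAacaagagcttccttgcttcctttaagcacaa
Ifitm1, chr7:140967826-140968105, plus strand: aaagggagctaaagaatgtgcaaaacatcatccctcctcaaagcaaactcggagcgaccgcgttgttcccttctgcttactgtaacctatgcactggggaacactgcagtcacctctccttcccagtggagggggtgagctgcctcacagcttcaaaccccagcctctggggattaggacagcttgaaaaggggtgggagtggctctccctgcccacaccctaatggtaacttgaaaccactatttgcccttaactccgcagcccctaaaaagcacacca
Ifitm3 has 2 ISRE matches, GAAAAGGAAA beginning 2 bases after the start and GAAACCGAAA beginning 19 bases after it, and a GAS match, TTCTGAGAA, that overlaps the latter. Ifitm2 has the same ISRE letters GAAAAGGAAA, 46 bases before its start. Ifitm6 has no ISRE match and a GAS match, TTCCTTGAA, 10 bases before its start. The Ifitm1 window and the 3 Ifitm10 windows hold neither set of letters. The RefSeq starts of Ifitm1 (140968076) and Ifitm6 (141016892) lie well inside their GENCODE genes, whose outer ends were not searched. Of 32544 windows of this length, 3.45% hold ISRE letters and 8.33% hold GAS letters. Among 34 windows that belong to 27 of the type I interferon-stimulated genes below, 41.2% and 20.6% do. By gene, 13 of the 27 have ISRE letters and 7 have GAS letters. The letters are a description of these windows.

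Of 38 type I interferon-stimulated genes, 18 were tested. Of these, 1 was called higher and 0 lower, where 0.739% and 0.192% of all genes tested were, and 12 of the 18 had a log2 fold change above 0. Their median log2 fold change was 0.18, beside -0.00 over all genes tested. The called gene was Isg20, an RNA exonuclease, which rose from 12.5 ± 4.44 to 26.8 ± 5.92 CPM (SD over 4 mice), a log2 fold change of 1.14 (SE 0.21, edgeR adjusted p = 0.00998) and no overlap between the groups. Trim30a, an inhibitor of inflammatory signalling, had a log2 fold change of 0.84 (SE 0.23, edgeR adjusted p = 0.0881). Rsad2, which encodes the antiviral enzyme viperin, had 0.55 (SE 0.16, edgeR adjusted p = 0.111). Ifi27, the most abundant gene of the list, was at 1497.3 CPM in CTR against 1354.9 CPM in CAC (log2 fold change -0.14, edgeR adjusted p = 0.521). Irf7, a transcription factor of the response, was at a log2 change of 0.18 (edgeR adjusted p = 0.812). The ubiquitin-like Isg15 did not pass the filter, at 1.55 CPM in CTR against 3.23 CPM in CAC.

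Of 22 interferon gamma-induced genes, 13 were tested and 0 were called, with a median log2 fold change of -0.03. Of all genes tested, 0.932% were called in either direction, so 0 calls in this list and in those that follow is near that share. The smallest p in this list was that of the chemokine Cxcl9, at 13.7 ± 2.11 CPM in CTR against 8.75 ± 3.74 CPM in CAC (SD over 4 mice, log2 fold change -0.55, edgeR adjusted p = 0.328). The next were Irf1 at -0.26 and Ciita, the activator of class II antigen presentation genes, at 0.44 (edgeR adjusted p = 0.570 and 0.618). Of 11 interferon receptor and signalling genes, 9 were tested and 0 called, with a median of 0.18. The kinase Jak1 had a log2 fold change of 0.25, the receptor gene Ifngr1 0.25 and the receptor gene Ifnar2 0.18 (edgeR adjusted p = 0.341, 0.440 and 0.541). Of 19 genes of entry restriction and of the endosomal partners of IFITM proteins, 16 were tested and 0 called, with a median of 0.10. Abhd16a, a phospholipase, stood at 22.1 ± 1.89 CPM in CTR against 14.3 ± 0.271 CPM in CAC (SD over 4 mice, log2 fold change -0.62, edgeR adjusted p = 0.0623). Nedd4, a ubiquitin ligase that acts on IFITM3, had a log2 change of 0.25 (edgeR adjusted p = 0.336), and the sterol carrier Osbp had 0.67 (adjusted p = 0.398).

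**Figure D3:**
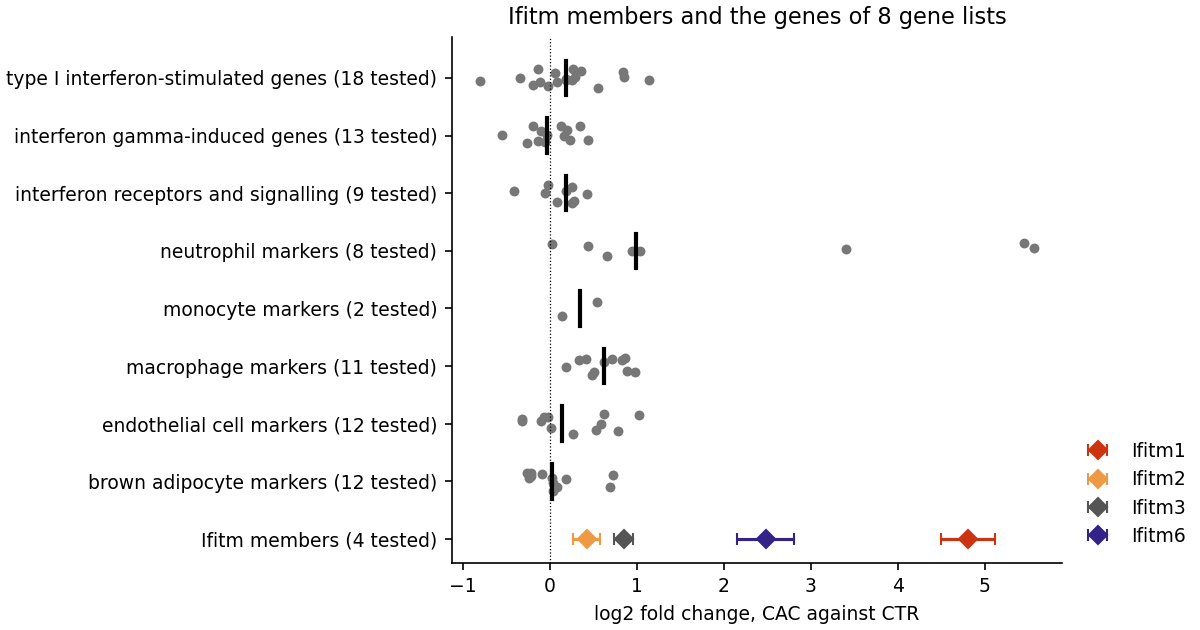
log2 fold change of CAC against CTR for the 4 Ifitm members tested (diamonds with SE) and for the tested genes of 8 lists (grey points, spread vertically only for legibility; black marks are list medians). Ifitm2 at 0.42 and Ifitm3 at 0.85 lie within the range of the tested type I interferon-stimulated genes, -0.81 to 1.14. Ifitm6 at 2.48 and Ifitm1 at 4.81 lie beyond it. This is a description, since Ifitm1 was chosen for its rise and Ifitm6 passed the filter only through CAC. The neutrophil markers S100a8 at 5.57 and S100a9 at 5.45 lie higher still.

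Marker lists of the other cells that BAT can hold are given beside the members, and 0.739% of all genes tested were called higher. Of 24 neutrophil markers, 8 were tested, and S100a8, S100a9 and Retnlg were called higher. Like Ifitm1 and Ifitm6, these 3 genes passed the filter only through their CAC libraries, so their number is a description. The list summed to 216.3 to 264.8 CPM in CTR against 472.4 to 742.7 CPM in CAC, of which Hp, also a gene of adipocytes, held a mean of 203.5 and 275.8 CPM. Of the difference of 348.7 CPM between the mean sums, S100a8 and S100a9 made up 69.7% and Hp 20.7%. S100a8, which codes for a subunit of calprotectin, rose from 3.57 ± 0.838 to 174.7 ± 85.7 CPM, and its partner S100a9 from 1.60 ± 0.790 to 73.5 ± 28.1 CPM (SD over 4 mice, edgeR adjusted p = 0.00515 and 0.000182). The defining neutrophil surface marker Ly6g had 0 counts in every CTR library and 1, 0, 1 and 0 counts in CAC. The chemokine receptor Cxcr2 had 0 counts in CTR and 2, 5, 8 and 4 in CAC. Of 14 monocyte markers, 2 were tested and 0 called, and the list summed to 22.5 to 35.2 CPM in CTR against 23.9 to 44.5 CPM in CAC. Of 15 macrophage markers, 11 were tested and those called higher included C1qa and C1qb, with a median log2 fold change of 0.62. That list summed to 243.2 to 282.2 CPM in CTR against 344.6 to 473.2 CPM in CAC. The complement gene C1qb rose from 30.8 ± 5.59 to 61.1 ± 12.4 CPM (SD over 4 mice, with an adjusted p of 0.00137 by edgeR). The share of the members' rise that lies in these cells was not tested.

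Of 13 endothelial markers, 12 were tested and Flt1, Esam, Ly6c1 and Ly6a were called higher (beside 0.739% of all genes). Over the 12, 7 log2 fold changes were above 0 and 5 below, with a median of 0.13, and the list summed to 1430.8 to 1450.2 CPM in CTR against 1305.2 to 1750.4 CPM in CAC. Ly6a, an interferon-inducible surface antigen, rose from 38.1 ± 5.26 to 76.8 ± 13.5 CPM (SD over 4 mice, log2 fold change 1.02, edgeR adjusted p = 0.000238), and 7 of its 8 libraries hold fractions of shared reads. The erythroid list summed to 6179.5 to 19268.8 CPM in CTR against 14636.7 to 44326.9 CPM in CAC, with 1 of 6 tested genes called, the anion exchanger Slc4a1, which also passed the filter only through CAC. The skeletal muscle list summed to 1120.3 to 2729.3 CPM in CTR against 2459.6 to 4510.2 CPM in CAC, with 0 of 8 called. Their part in the members' values was not tested. Of 12 brown adipocyte markers, Ppargc1a, a coactivator of heat production, was called higher (log2 fold change 0.73, edgeR adjusted p = 0.0201) and the median was 0.03. The lists of fibroblast, pericyte, Schwann, B, mast cell and platelet markers had 0 called genes, with 10, 8, 3, 2, 3 and 2 tested. The T and NK cell list had 0 of 13 genes tested and summed to 6.22 to 10.4 CPM in CTR against 7.03 to 9.57 CPM in CAC.

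The genes whose patterns over the 8 libraries were most like those of Ifitm1, Ifitm6 and Ifitm3 were found by the root mean square (RMS) difference of log2 CPM, each gene centred on its mean. Nearest to Ifitm1 were S100a9 (RMS 0.55), Mfsd2a (0.56), S100a8 (0.58), Slc4a1 (0.89) and Retnlg (0.94), where the median over all genes tested was 2.13. Ifitm1 was chosen for its rise, so genes with large rises come nearest (here log2 fold changes of 3.40 to 5.57). The median is therefore no baseline of likeness. All of these genes, Mfsd2a included, passed the filter only through their CAC libraries. Mfsd2a, a lipid transporter, stood at 0.177 ± 0.216 CPM in CTR against 8.11 ± 2.87 CPM in CAC (SD over 4 mice). It held 3 counts in CTR and 79 in CAC, a ratio of 35.5 with an exact 95% interval of 11.7 to 175.6 from counting alone. Nearest to Ifitm6 were Csf2rb (0.30), the shared receptor subunit for interleukin 3, interleukin 5 and GM-CSF, the matrix protein gene Vwa1 (0.33) and the clock gene Per1 (0.41), beside a median of 1.09. Csf2rb was at 12.6 ± 1.29 CPM in CTR against 42.4 ± 6.41 CPM in CAC, and Vwa1 at 9.37 ± 1.07 and 27.9 ± 3.32 CPM (SD over 4 mice). Nearest to Ifitm3 were Ly6a (0.13), the complement gene C1qa (0.14) and Cnot4 (0.16), a ubiquitin ligase of the deadenylase complex, beside a median of 0.52. C1qa was at 42.8 ± 6.13 CPM in CTR against 76.3 ± 8.29 CPM in CAC, and Cnot4 at 4.74 ± 0.289 and 8.09 ± 1.92 CPM (SD over 4 mice). The points of each gene share libraries and depth, and each pattern includes the difference between the groups. Within CAC, Ifitm1, S100a8 and S100a9 were highest in replicate 1, while Mfsd2a was highest in replicate 4, at 10.8 CPM against 10.3 CPM in replicate 1.

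**Figure D4:**
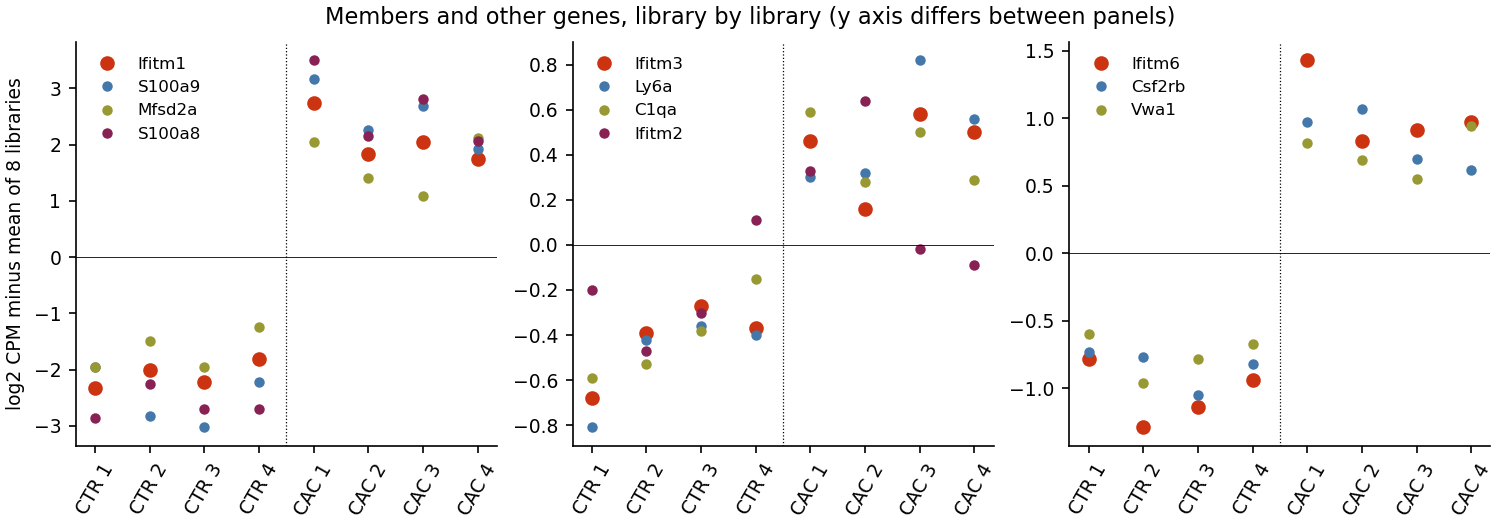
log2 CPM minus the gene's mean over the 8 libraries, for Ifitm1, Ifitm3 and Ifitm6 (large points) and for genes with like patterns, with Ifitm2 added to the middle panel; the y axis differs between panels and the dotted line divides CTR from CAC. Ifitm1, S100a8 and S100a9 peak in CAC replicate 1 and Mfsd2a in CAC replicate 4, and Ifitm2 in CAC replicates 3 and 4 falls below its value in CTR replicate 4.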

How the data were processed

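Total RNA of BAT was sequenced single-end over 75 cycles, with 1 library per mouse in 4 CTR and 4 CAC samples, grouped by their labels. Per the study's methods and processing notes, the authors checked reads with FastQC 0.11.9, aligned them with HISAT2 2.2.1 and counted them with featureCounts with multi-mapping reads allowed; the strand setting is not given in the sources used here. For 56953 genes the authors deposited expected counts, which are not normalized and include parts of reads, since 25.1% to 28.4% of each library's values above 0 have decimals. For 24792 genes they also deposited a signal normalized with DESeq2, and 100.0% of 197152 values equal the count without decimals divided by a size factor of the library (within 0.01 reads). Gene IDs matched GENCODE M21 (GRCm38) in 91.4% of cases once versions were dropped, and coordinates and transcripts come from it. Promoter sequences come from RefSeq. Protein sequences were not used here.

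Counts were rounded, filtered by filterByExpr, normalized by TMM and tested by edgeR 4.0.16 (R 4.3.3, robust quasi-likelihood, CAC against CTR, no covariate), with Benjamini-Hochberg adjustment over 9876 genes at 0.05. CPM use TMM-scaled library sizes. In simulated data of this comparison, run on 9587 genes, 69 of 98 genes with a log2 change of 1 were called, 97 of 98 with 2, and 8 of 9391 unchanged genes. The changed genes were not drawn from those with the lowest mean levels, so the rates for changed genes do not cover these. Ifitm10 and the Ifitm2 to Ifitm3 ratio were compared by exact permutation over 70 assignments. Intervals of pooled counts are Clopper-Pearson. RMS patterns use log2 CPM with a prior count of 2. Alternatives were DESeq2 1.42.0, limma-trend (limma 3.58.1) on log2 of the deposited signal plus 1, other scalings and filters, decimals cut off, other pseudocounts, the replicate number as a block, and each library left out. Python 3.11.15, scipy 1.17.1, Biopython 1.88 and matplotlib 3.10.9 were also used.

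The members and gene lists were chosen with earlier results of these data known. Named are the members in every library, other Ifitm genes, the 3 tested genes with the smallest p of a list, tested genes with a start within 100000 bases of a member, and the 5 genes nearest in pattern to Ifitm1 and 3 to each other called member. Hp, Ly6g, Cxcr2, Ifi27, Irf7, Isg15, Esam and Gm7676 and the other genes that share reads were named after their values were seen. Not every gene chosen this way is reported here.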

Additional observations from a re-analysis of the deposited data

Results flagged for a closer look

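Over the members, their sum and 4 ratios between them, 20 groups of 4 libraries were examined for a library that stands apart from the rest of its group by Dixon's criterion, and 0 were found.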

How the results depend on the processing

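Ifitm3 kept its direction and an edgeR, DESeq2 or limma adjusted p below 0.05 under every alternative, with log2 fold changes of 0.78 to 0.93. Ifitm6, whose entry into the filtered tests depended on its CAC libraries, ranged from 2.27 to 2.59 where it was tested, and was 2.45 without a filter. Ifitm2 stayed above that threshold in every alternative (log2 fold change 0.27 to 0.56, adjusted p 0.113 to 0.541), and Ifitm1 ranged from 4.57 to 5.14. With at least 10 counts in every library, Ifitm1 and Ifitm6 were not tested. Ifitm10 entered the edgeR test only without a filter (log2 fold change -0.36, edgeR adjusted p = 0.907). Its log2 ratio of means, -0.47 over all libraries, ranged from -1.69, without CAC replicate 4, to -0.05, without CAC replicate 1, and it had no value under upper quartile scaling, DESeq2 or the stricter filter. The difference in the log2 ratio of Ifitm2 to Ifitm3 was -0.65 to -0.29 when a library was left out, where the exact permutation p ranged between 0.0571 (CAC replicate 2 left out) and 0.486 (CAC replicate 3 left out). The count of called genes, 92, was 351 without a filter, where the cause was not tested. It ranged from 42, without CTR replicate 1, to 135, without CTR replicate 3, over the fits that left out a library, and was 60 without CAC replicate 3. With the replicate number as a block it was 140, but same-numbered libraries did not deviate together (correlations of -0.02 to 0.04), so the samples share only a number, and no member's call changed under the block. Depth limits Ifitm10, and the CTR levels of Ifitm1 and Ifitm6, which rest on 2 to 7 counts per library after rounding.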
